A study of Mus musculus with 138 samples.

Results

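The E18.5 coronal suture of the mouse held a small set of cells that expressed Mmp13 without high Ibsp, the bone sialoprotein gene of osteoblasts. They were chosen from 2 single-cell libraries of dissociated coronal suture strips of wild type C57BL/6J embryos, each a pool of several embryos of both sexes. A cell was a member when it had at least 2 Mmp13 UMIs (unique molecular identifiers, each standing for 1 captured transcript) and fewer than 50 Ibsp UMIs per 10000 UMIs. Only barcodes with over 800 detected genes were kept. Of 4249 kept cells, 340 were members, 237 of 2625 in library 1 (9.03%, 95% Wilson interval 7.99% to 10.2%) and 103 of 1624 in library 2 (6.34%, 5.26% to 7.63%). The comparison cells were all other kept cells and the cells with Ibsp at 50 or more per 10000, called Ibsp-high here, which numbered 107 and 285. Mmp13 and Ibsp chose the members, so the cell comparisons are given as descriptions within each library, without a test. Bulk libraries of captured coronal tissue at E18.5, with 5 embryos each for the suture mesenchyme (SM), the frontal osteogenic front (OF) and the parietal OF of the same strain, took no part in the choice and were tested. The series also held the SM and OFs of the frontal, sagittal and lambdoid sutures and the coronal suture at E16.5.

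Mmp13 encodes collagenase-3, a secreted matrix metalloproteinase that cleaves fibrillar collagen. It is known from hypertrophic chondrocytes, from bone-forming cells and from sites of matrix remodelling, and its transcription in the osteoblast lineage is known to depend on RUNX2 and on AP-1 factors of the FOS and JUN families. Ibsp encodes bone sialoprotein, a mineral-binding matrix protein made by osteoblasts that are laying down mineralizing bone. In the growing skull roof, new osteoblasts arise at the OFs at the bone edges and along the periosteum, while the SM between the edges stays unmineralized.

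In mm10, the gene Mmp13 (ENSMUSG00000050578.10) spans 7272514 to 7283331 of chromosome 9 and Ibsp (ENSMUSG00000029306.8) spans 104299171 to 104311469 of chromosome 5, both on the plus strand. The promoters of these genes, which define the members, are shown from 250 bases before to 50 bases after the RefSeq start site (GRCm38.p6, plus strand, chr9:7272264-7272563 and chr5:104299037-104299336). Capitals mark matches to the RUNX letters TGTGGT, read on either strand, and to the AP-1 letters TGANTCA. The 2 kinds of match did not overlap.
Mmp13: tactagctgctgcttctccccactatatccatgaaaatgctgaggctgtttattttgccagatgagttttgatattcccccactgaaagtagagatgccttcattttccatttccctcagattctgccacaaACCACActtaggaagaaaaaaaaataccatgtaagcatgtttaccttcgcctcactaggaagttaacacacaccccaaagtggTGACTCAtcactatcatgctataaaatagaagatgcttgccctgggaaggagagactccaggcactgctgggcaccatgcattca
Ibsp: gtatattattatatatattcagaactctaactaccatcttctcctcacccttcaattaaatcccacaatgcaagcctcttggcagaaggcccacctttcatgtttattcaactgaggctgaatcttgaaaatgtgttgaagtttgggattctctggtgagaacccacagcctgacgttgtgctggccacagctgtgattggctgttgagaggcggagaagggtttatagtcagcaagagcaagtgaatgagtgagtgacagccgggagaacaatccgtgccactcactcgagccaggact
The Mmp13 window held 1 RUNX match on the minus strand, starting 118 bases before the start site, and 1 AP-1 match, TGACTCA, starting 35 bases before it. The Ibsp window held neither. Of 32851 RefSeq promoter windows of the same length, 16.8% held the RUNX letters, 7.81% the AP-1 letters and 1.42% both. Windows were found for Gpx3, Pdzrn4, Serpine2, Ifitm1 and Epdr1, which were higher in the members than in the other cells (below), and none held either motif. Of the genes higher in the members than in Ibsp-high cells, 171 of 236 had a window, and 9.94% of these held the RUNX letters and 4.68% the AP-1 letters. Of the genes lower there, 109 of 154 had a window, with 9.17% and 2.75%. These are matches of letters only.

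Most members carried little Mmp13, and a few carried very much. The median member had 4 Mmp13 UMIs in library 1 and 3 in library 2, with maxima of 474 and 87. The 10 highest members held 46.4% of all Mmp13 UMIs of the members in library 1 and 37.1% in library 2. Summed over members, Mmp13 made up 517 counts per 1000000 UMIs (CPM) in library 1 and 473 CPM in library 2. It made up 7.47 and 14.5 CPM in all other kept cells and 15.7 and 12.1 CPM in Ibsp-high cells. At the lower edge, 82 and 38 members had exactly 2 Mmp13 UMIs, and a further 371 and 175 cells with low Ibsp had exactly 1. Ibsp in the members had a median of 3.01 and 5.15 UMIs per 10000, close to the 3.18 and 5.35 of the other cells under the limit, whereas Ibsp-high cells had medians of 121 and 153. The member nearest the Ibsp limit stood at 38.2 in library 1 and 47.6 in library 2. Of the Ibsp-high cells, 5 of 107 (4.67%) and 1 of 285 (0.351%) had 2 or more Mmp13 UMIs, the lowest of these at 54.9 and 77.3 Ibsp UMIs per 10000. Among cells with Ibsp under the limit the shares were 9.41% and 7.69%, and the difference was not tested.

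**Figure D1:**
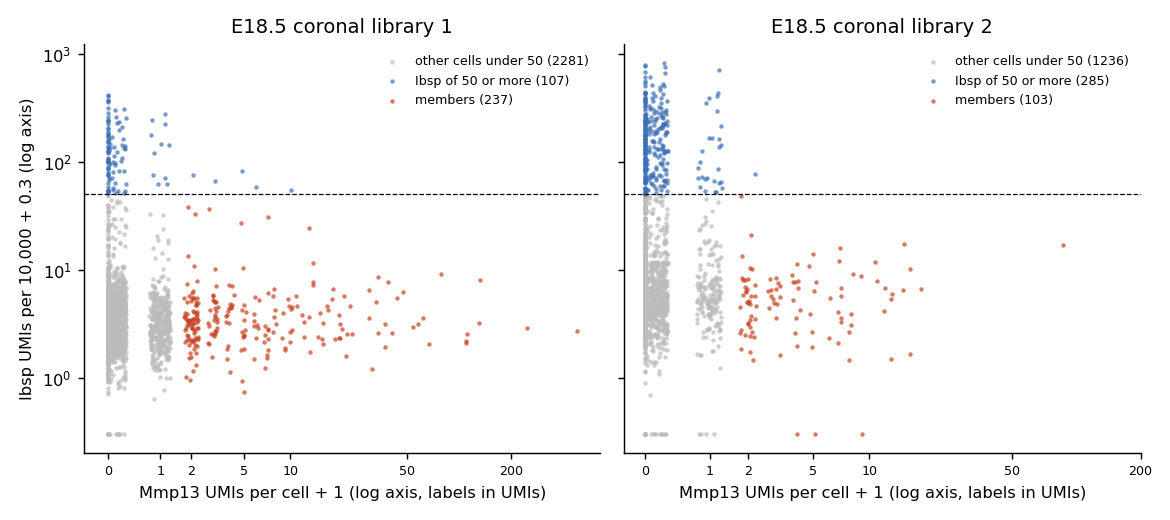
Mmp13 UMIs per cell (horizontal, log axis, jittered) against Ibsp UMIs per 10000 (vertical, log axis) for each kept cell of the 2 E18.5 libraries, with the Ibsp limit of 50 as a dashed line. The 237 and 103 members lie to the right and under the line, most of them close to the limit of 2 UMIs, with a tail to 474 and 87 UMIs.

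Free RNA in the droplets can give a cell UMIs of a gene that it does not express. Cells with at least 50 macrophage marker UMIs per 10000 served as a reference, although some of them may express Mmp13. A Mmp13 UMI was found in 41 of 207 of them in library 1 (19.8%, Wilson interval 14.9% to 25.8%, median depth 16641 UMIs). In library 2 it was found in 9 of 34 (26.5%, 14.6% to 43.1%, median depth 11037 UMIs). Among all kept cells the shares were 23.8% and 18.9%, with 18252 and 7204 UMIs in the median cell. A single Mmp13 UMI cannot be told from background at these shares and is read as background here. With 2 or more UMIs, the shares were 10 of 207 (4.83%) and 0 of 34 macrophage marker cells, against 9.22% and 6.40% of all kept cells. The 0 of 34 allows a share of up to 8.82% by 3 counts of the total and of up to 10.2% by the Wilson interval, so that the difference in library 2 was not detectable at this number of cells. The highest macrophage marker cell had 24 Mmp13 UMIs in library 1 and 1 in library 2. The 10 with 2 or more UMIs were themselves members, so this reference overlaps the members. Members with few Mmp13 UMIs may thus hold background, and the results are also given by Mmp13 band.

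By the median, the members were not deeper than the other cells, with 17928 UMIs against 18264 in library 1 and 6693 against 7237 in library 2. By the mean they were deeper in both libraries. Their median mitochondrial shares were 2.24% and 6.81%, against 2.33% and 7.43%. Haemoglobin made up over 50% of the UMIs in none of the members of library 1 and in 2 members of library 2. The libraries shared 5 barcodes, none of them a member in both. Levels and shares of cells are given for each library, and the UMIs of the libraries were not summed together. Medians over gene lists were taken on the mean log2 fold of both libraries.

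Alpl and Runx2, genes of the early osteoblast, were found in a larger share of the members than of all other cells, whereas the shares for Sp7 were close. To compare shares of cells at equal depth, each cell was thinned to 3500 UMIs, and no cell was left out by this. Alpl, which encodes the tissue-nonspecific alkaline phosphatase, was then found in 59.5% of members, 36.5% of other cells and 14.2% of macrophage marker cells in library 1 (here the 197 that were not members), and in 80.6%, 53.6% and 17.6% in library 2. Unthinned, the shares were 83.5%, 72.3% and 44.2% and 93.2%, 69.6% and 38.2%. Runx2, whose product commits cells to the osteoblast fate, was found after thinning in 28.3%, 17.1% and 4.06% in library 1 and in 50.5%, 30.4% and 8.82% in library 2. Sp7, the osterix gene that acts after Runx2, was found in 39 of 237 members and 387 of 2388 other cells (16.2%) in library 1 and 32.0% and 31.1% in library 2. The other cells include the Ibsp-high cells, in which Sp7 reached 52.3% and 58.6%. At least 1 UMI of Alpl, Runx2 or Sp7 was found, without thinning, in 218 of 237 members of library 1 (92.0%) and 101 of 103 of library 2 (98.1%), against 87.1% and 83.6% of other cells. Of the members of library 1, 20 described further on were poor in Alpl.

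Against all other kept cells, 6 genes stood out as higher in the members. A gene was called when it was at least 2-fold higher, or lower, in both libraries, with at least 10 UMIs in the 2 groups together and at least 50 CPM in the higher group in each library. Of 2134 genes that met these minima, 6 were higher (0.281%) and 13 lower (0.609%), and since these cells were chosen on the same matrices nothing is read from the counts. The 5 described here are Gpx3, Pdzrn4, Serpine2, Ifitm1 and Epdr1. Gpx3 (chromosome 11, 54902453 to 54910377, plus strand), which encodes a secreted glutathione peroxidase, was at 341 CPM in members and 85.8 CPM in other cells in library 1 (3.97-fold) and at 230 and 71.6 CPM in library 2 (3.21-fold). Serpine2 (chromosome 1, 79794197 to 79861180, minus strand), a secreted inhibitor of serine proteases such as thrombin and plasminogen activators, was at 278 and 101 CPM in library 1 (2.76-fold) and at 326 and 123 CPM in library 2 (2.65-fold). After thinning, a Serpine2 UMI was found in 46.4% and 55.3% of members, 23.2% and 28.8% of other cells and 5.08% and 8.82% of macrophage marker cells. For Gpx3 the shares were 51.9% and 42.7% of members, 21.4% and 18.8% of other cells and 39.1% and 11.8% of macrophage marker cells. Both genes were thus found more widely in members than in either group, but Gpx3 in library 1 was also widespread among macrophage marker cells.

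Pdzrn4 (chromosome 15, 92396881 to 92771819, plus strand), which encodes a PDZ domain RING finger protein, was at 63.6 and 20.6 CPM in library 1 (3.09-fold) and at 70.9 and 24.2 CPM in library 2 (2.95-fold). C1qa, a complement gene of macrophages, was at 160.5 and 254 CPM in library 1 and at 16.1 and 75.5 CPM in library 2, lower in the members both times. Ifitm1 (chromosome 7, 140967221 to 140969825, plus strand), an interferon-inducible transmembrane gene, was 2.17-fold and 2.09-fold higher, and Epdr1 (chromosome 13, 19591706 to 19619927, minus strand), an ependymin-related gene, was 2.16-fold and 2.03-fold higher. Leaving the Ibsp-high cells out of the other cells, an alternative chosen after seeing the data, left 3 of 2152 genes higher (0.139%) and 11 lower (0.511%). The 3 were Gpx3, at 3.96-fold and 3.14-fold, Pdzrn4, at 2.98-fold and 2.47-fold, and Serpine2, at 2.76-fold and 2.6-fold, all among the 6, and 10 of the 11 were among the 13. Ifitm1 was then just under the limit, at 2.12-fold and 1.93-fold, as was Epdr1.

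The 13 genes lower in the members came from several kinds of cell, and 3 of them (Smpd3, Ifitm5 and Cgref1) were no longer called once the Ibsp-high cells, which the rule keeps out of the members, were left out of the other cells. Cd74 and Lyz2, genes of antigen presentation and of myeloid lysozyme, were 11.0-fold and 2.44-fold lower in library 1 and 28.2-fold and 8.60-fold lower in library 2. Both turned direction when 1 Mmp13 UMI was enough to be a member, with mean log2 folds of 0.71 and 0.35. Smpd3, a sphingomyelinase needed for bone mineralization, was 2.71-fold and 6.67-fold lower, and against the other cells of low Ibsp 1.37-fold and 2.57-fold lower. Ifitm5, an osteoblast membrane gene, was 2.12-fold and 3.28-fold lower, and against those cells 1.22-fold and 1.61-fold lower. Igfbp2, Igfbp3, Col14a1 and Dlk1, genes of mesenchymal cells, were 2.21-fold to 2.67-fold lower in library 1 and 2.37-fold to 4.60-fold lower in library 2. Igfbp3, the marker of the ectocranial mesenchyme outside the bones, was at 379 CPM in members against 839 CPM in library 1 and at 175 against 415 CPM in library 2. Apoe, Cpz and Cgref1, which also ranked among the 10 lowest, were 2.08-fold to 2.74-fold lower in library 1 and 3.09-fold to 4.19-fold lower in library 2. Without the Ibsp-high cells among the others, Cgref1 was 1.26-fold and 1.36-fold lower.

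**Figure D2:**
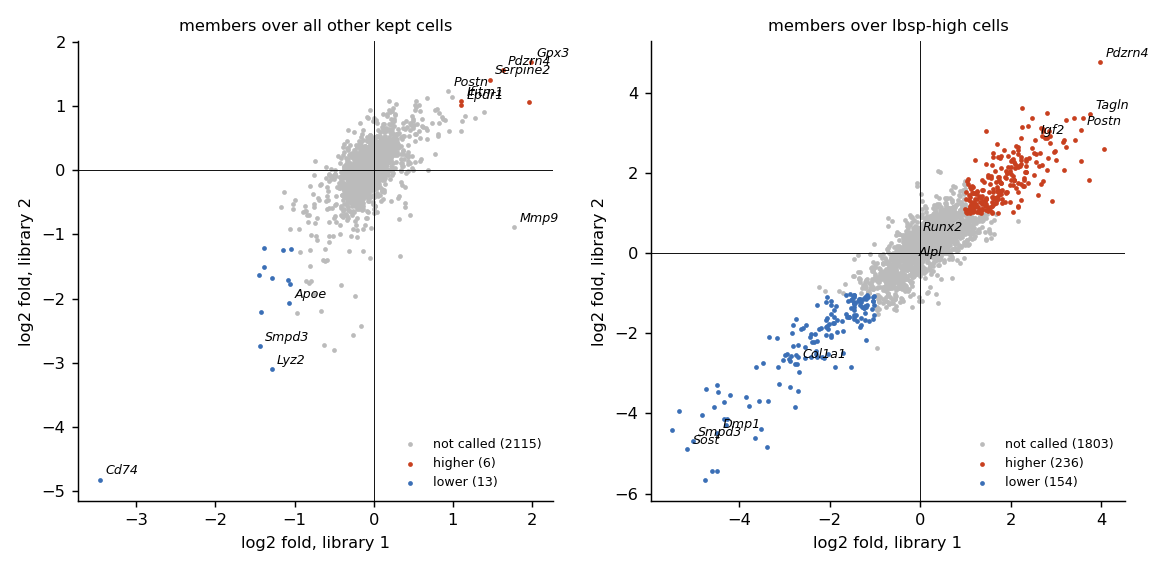
Log2 fold of summed UMIs in library 1 (horizontal) against library 2 (vertical), members over all other kept cells (left) and over Ibsp-high cells (right), 1 point per gene tested. On the left 6 genes were higher and 13 lower in both libraries, with Mmp9 higher in library 1 only, and on the right 236 were higher and 154 lower.

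Within the cells of low Ibsp, Gpx3, Serpine2, Alpl and Runx2 had higher values in each band of Mmp13 from 2 UMIs on, in both libraries, though only Serpine2 did so without overlap of neighbouring intervals in both. The bands were set after the data were seen, as 0, 1, 2, 3 to 9 and 10 or more Mmp13 UMIs, and the last 3 held 82, 93 and 62 members in library 1 and 38, 52 and 13 in library 2. Gpx3 was at 80.6, 108, 188, 355 and 603 CPM over the bands in library 1 and at 69.9, 88.8, 154, 266 and 292 CPM in library 2, where the intervals of the last 2 bands overlapped (227 to 311 and 219 to 382). Serpine2 stood at 99.4 CPM without Mmp13 and at 533 CPM (exact Poisson interval of the summed count 494 to 574) in the highest band in library 1. In library 2 it stood at 127 and 623 CPM (513 to 749). These intervals cover the counting error of summed UMIs only, not the spread between cells or embryos, and are no test. Gpx3 and Serpine2 were called as higher in these same members, so their step at 2 UMIs follows from that choice. Alpl was at 151, 158, 254, 409 and 419 CPM in library 1 and at 246, 297, 340, 530 and 568 CPM in library 2, and its last 2 bands overlapped in both libraries (384 to 435 and 384 to 455 in library 1, 474 to 591 and 463 to 688 in library 2). Runx2 was at 57.7, 61.8, 85.5, 89.2 and 109 CPM in library 1 and at 100, 109, 150, 206 and 226 CPM in library 2. From 2 UMIs on, the intervals of its neighbouring bands overlapped in both libraries. These are summed values, and the shares of cells with a UMI, without thinning, did not all follow them. From 3 to 9 to 10 or more Mmp13 UMIs, Alpl went from 88 of 93 to 44 of 62 cells in library 1. In library 2 it went from 50 of 52 to 13 of 13. Runx2 went from 68 of 93 to 48 of 62 and from 39 of 52 to 7 of 13. Gpx3 went from 81 of 93 to 45 of 62 and from 32 of 52 to 9 of 13. Sp7 had higher values at 2 and at 3 to 9 UMIs than without Mmp13, though at 2 UMIs in library 2 the intervals overlapped (84.9 to 150 and 79.7 to 91.5). Over the 5 bands it was at 53.1, 55.5, 76.3, 78.4 and 54.5 CPM in library 1 and at 85.4, 93.6, 114, 147 and 71.6 CPM in library 2.

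The receptor genes Fgfr2 and Fgfr3 had higher values at 3 to 9 Mmp13 UMIs than without Mmp13. Fgfr2, which encodes a fibroblast growth factor receptor of osteoprogenitors, was at 65.9, 73.1 and 119 CPM at 0, 2 and 3 to 9 Mmp13 UMIs in library 1 and at 103, 150 and 250 CPM in library 2. Its intervals at 0 and 2 UMIs overlapped in library 1 (63.5 to 68.4 and 62.9 to 84.5). In the highest band it was at 129 and 204 CPM. Fgfr3, which encodes another receptor of the family, was at 14.5, 16.8, 24, 34.2 and 58.3 CPM over the 5 bands of library 1 and at 15.6, 28.3, 26.8, 39.2 and 49.6 CPM in library 2, the last from 9 UMIs (22.7 to 94.1). Postn, the matrix gene periostin of the periosteum, peaked in the middle band at 1210 CPM (library 1) and 1880 CPM (library 2) and was lower in the highest, at 889 and 1160 CPM. Col1a1, the main collagen gene of bone, was lower in the highest band than in cells without Mmp13, at 8930 against 13200 CPM in library 1 and at 14600 against 20500 CPM in library 2. Other bone matrix genes did not follow Col1a1. Spp1 was higher in the highest band than without Mmp13, at 2430 against 1370 CPM in library 1. In library 2 it was at 11600 against 3190 CPM, with 452 of the 2109 UMIs of that band from 1 cell. Bglap was close, at 299 against 278 CPM and at 518 against 496 CPM. The highest band of library 1 includes 17 cells with high Mmp9, described further on.

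**Figure D3:**
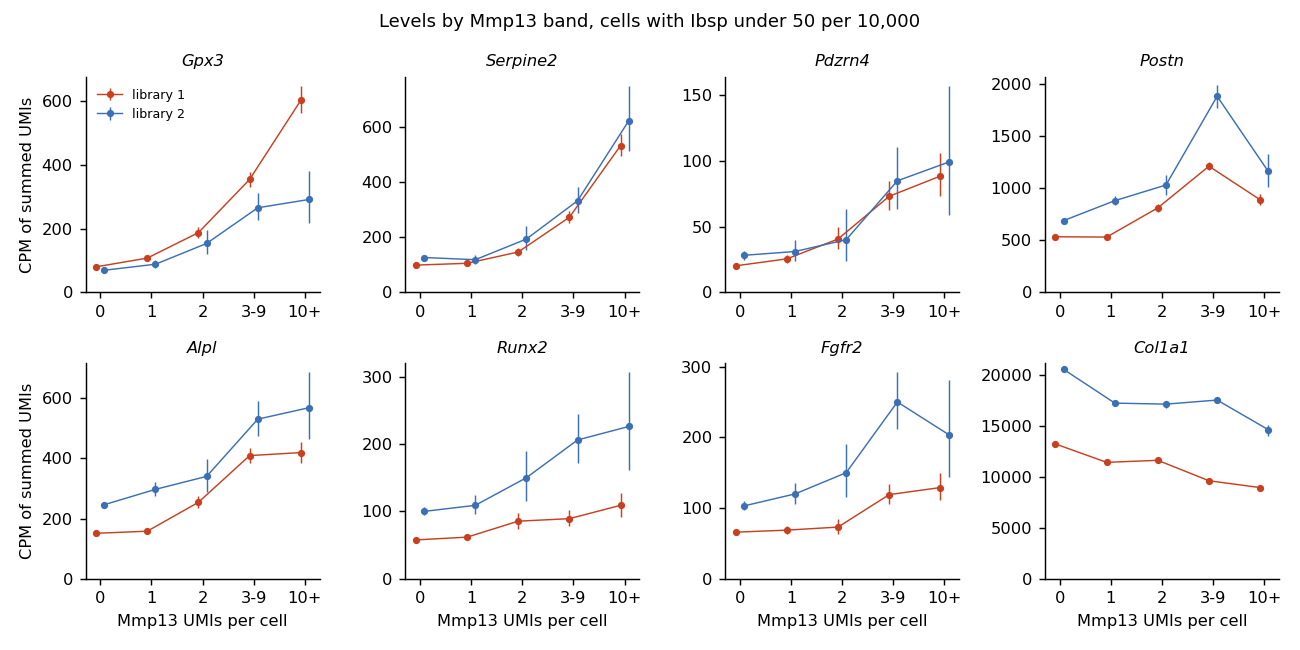
CPM of summed UMIs of 8 genes (vertical, from 0) by Mmp13 UMIs per cell (horizontal) in cells with Ibsp under 50 per 10000, with exact Poisson intervals, for library 1 in red and library 2 in blue. The values of Gpx3, Serpine2, Alpl and Runx2 are higher in each band from 2 UMIs on, with overlapping intervals between some neighbouring bands for all but Serpine2, Postn peaks at 3 to 9 UMIs, and Col1a1 is lowest at 10 or more.

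Among the matrix metalloproteinase and TIMP genes, 7 of 19 met the minima and none was called against all other cells. Of all genes tested, 0.281% were higher and 0.609% lower, so the count in a list this short tells little. Mmp14, a membrane-bound collagenase known to activate other metalloproteinases, was at 375 CPM in members and 242 CPM in other cells in library 1 and at 272 and 171 CPM in library 2. Mmp2, a gelatinase that MMP14 activates, was at 394 and 334 CPM and at 343 and 282 CPM. Timp3, an inhibitor bound to the matrix, was at 278 and 244 CPM and at 401 and 245 CPM. Mmp8, the other collagenase gene of the list, had 4 UMIs in the members of library 1 and 0 in those of library 2. Among 16 other matrix protease genes, 9 met the minima and none was called. Fap, which encodes the fibroblast activation protease, was at 155 and 63.9 CPM in library 1 and 158 and 90.1 CPM in library 2. The median log2 fold of the metalloproteinase and TIMP genes was 0.30, beside -0.02 for all genes tested.

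Genes of the osteogenic transcription factors and of AP-1 were also uncalled against other cells, 0 of 9 and 0 of 7 that met the minima. With 0.281% of all genes tested higher and 0.609% lower, counts in lists this short tell little. Their medians were 0.38 and 0.21 on the log2 scale. Dlx5, a homeobox factor upstream of Runx2 and Sp7, was at 86.3 and 54.2 CPM in library 1 and 91.9 and 60.1 CPM in library 2. Fos was at 3488 and 3160 CPM and at 3374 and 2338 CPM. Jun was at 1161 and 998 CPM and at 1225 and 832 CPM. The early response genes that dissociation of tissue also raises had the same median as AP-1, 0.21, and their part in the AP-1 values was not tested.

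Tnfsf11, which encodes the osteoclast-inducing ligand RANKL, was among the rarer genes under the 50 CPM minimum. It was at 22.1 CPM in members (140 UMIs) and 4.54 CPM in other cells in library 1, and at 21.0 CPM (26 UMIs) and 6.15 CPM in library 2. In Ibsp-high cells it was at 0.423 and 2.01 CPM. After thinning, 6.33% and 11.7% of members held a Tnfsf11 UMI, against 1.72% and 2.17% of other cells and 0.508% and 0% of macrophage marker cells. Its decoy receptor gene Tnfrsf11b rested on few UMIs in the members, at 1.26 and 3.22 CPM. It was at 2.84 and 7.00 CPM in other cells, and no direction against these is read. In Ibsp-high cells it was at 15.2 and 22.1 CPM. Hhip, the hedgehog-binding marker of the coronal SM, was at 23.99 CPM in members and 29.5 CPM in other cells in library 1 and at 33.1 and 50.3 CPM in library 2. Of the pathway lists, 1 of 11 hedgehog genes, 1 of 11 Notch genes, 4 of 22 WNT genes, 2 of 15 FGF genes and 8 of 25 BMP and TGF-beta genes met the minima, and none of these was called. Of 9 IGF genes tested 2 were lower, Igfbp2 and Igfbp3, beside 0.281% higher and 0.609% lower among all genes tested.

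Library 1 held a second pattern among its high Mmp13 cells. Of its 237 members, 20 had at least 10 UMIs of Mmp9, the gene of gelatinase B, with fewer than 10 of Acp5, the tartrate-resistant acid phosphatase of osteoclasts. These limits were set after the data were seen. The 20 cells had a median of 35.5 Mmp13 UMIs (range 2 to 247), and 17 of them had 10 or more, out of the 62 members of library 1 at that level. Mmp9 was at 3290 CPM in them, near the 2850 CPM of 39 cells outside the members with 10 or more UMIs of both Mmp9 and Acp5. Ctsk, the osteoclast cathepsin, which the limits did not use, was at 231 CPM in the 20 cells and at 3300 CPM in the 39. Acp5, which set the limits, was at 15.9 and 3530 CPM. Outside the members, 7 cells of library 1 met the same limits for Mmp9 and Acp5 with 0 or 1 Mmp13 UMIs. In library 2 only 2 members met them, with 3 and 87 Mmp13 UMIs.

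The 20 cells were poor in Alpl, Postn and Sp7 but not in Runx2. Alpl was at 74.2 CPM (5 of 20 cells with a UMI), against 371 CPM in the 215 members with fewer than 10 Mmp9 UMIs. Postn was at 225 against 1040 CPM and Sp7 at 15.9 against 77.1 CPM, whereas Runx2 was at 98.0 against 92.4 CPM. They were rich in Gadd45a, a growth arrest gene (646 against 23.6 CPM, 17 of 20 cells), in Clu, the chaperone clusterin (866 against 66.6 CPM, 19 of 20 cells), in Ccdc80 (1010 against 74.5 CPM, 20 of 20 cells) and in Tspan13 (533 against 27.8 CPM, 18 of 20 cells). Mmp14 was at 1240 against 321 CPM. Of 2946 genes that met the minima in this library, 393 were at least 2-fold higher in the 20 cells (13.3%) and 113 lower (3.84%), a description of 20 cells of 1 pool. The endothelial and pericyte genes Flt1, Kdr and Rgs5 among the highest came from 1 or 2 cells each. The 7 cells outside the members shared the higher Clu (1100 CPM) and Gadd45a (381 CPM), at 0 or 1 Mmp13 UMIs. The chondrocyte markers were divided. Acan was at 31.8 against 81.2 CPM, whereas Col2a1 was at 450 CPM (385 to 523, 19 of 20 cells) against 295 CPM (281 to 309, 154 of 215 cells). Col1a1 was at 3930 against 10700 CPM. No cell type name is given to them.

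**Figure D4:**
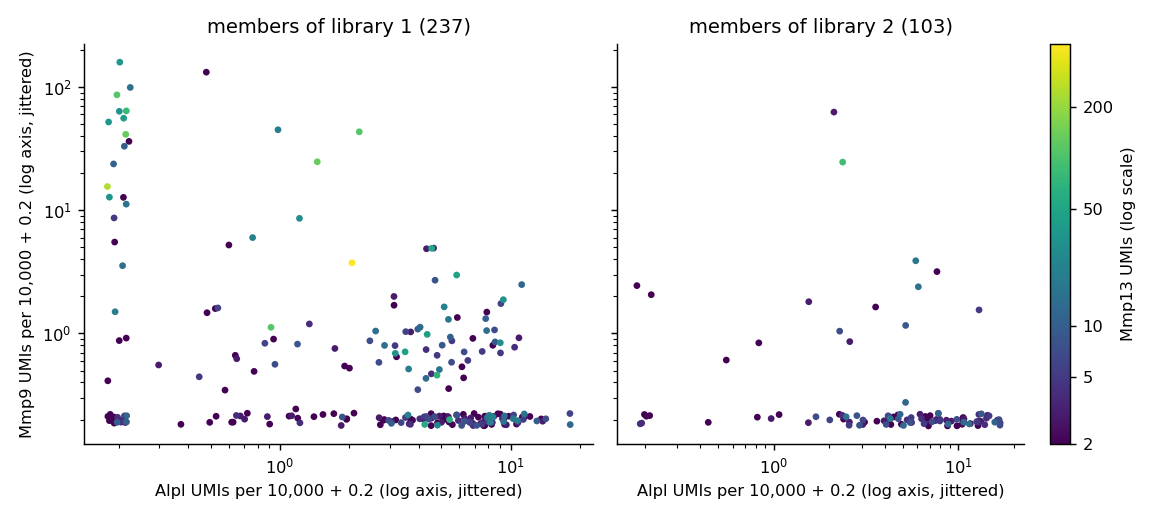
Alpl (horizontal) and Mmp9 (vertical) UMIs per 10000 of each member, on log axes with 0.2 added and points jittered, coloured by Mmp13 UMIs. In library 1, members with high Mmp9 stand mostly where Alpl is at 0, apart from the larger group with Alpl and little Mmp9. In library 2 almost all members belong to the latter.

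Leaving out members with 10 or more Mmp9 UMIs, an alternative chosen after seeing the data, left 316 members. Against the other cells 8 genes were then higher, among them the 5 described above. In the 215 members of library 1 Gpx3 stayed at 346 CPM and Serpine2 at 271 CPM.

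Against Ibsp-high cells the members differed far more widely. Of 2193 genes tested, 236 were higher in the members (10.8%) and 154 lower (7.02%). The members were lower in 14 of 20 bone matrix genes and higher in 3, and 3 of 6 periosteal markers were higher and 1 lower. Of 14 osteoblast markers other than Mmp13 and Ibsp, 10 were lower and none was higher, with a median log2 fold of -2.71 beside 0.28 for all genes. Col1a1 was at 10240 CPM in members and 67620 CPM in Ibsp-high cells in library 1 and at 16910 and 114300 CPM in library 2. Bglap, the osteocalcin gene, was at 271 and 2144 CPM and at 274 and 1591 CPM. Spp1, the osteopontin gene, was at 1567 and 15920 CPM and at 3521 and 15100 CPM. Alpl and Runx2 were not called, with Alpl at 349.6 against 390.0 CPM and 467 against 540.5 CPM, and Runx2 at 91.8 against 96.1 CPM and 189 against 142 CPM. Both early genes thus lay within 2-fold of the Ibsp-high cells. The members were chosen for low Ibsp, and the low bone matrix genes were shared by other cells of low Ibsp. In cells with neither Mmp13 nor high Ibsp, Bglap was at 278 and 496 CPM and Spp1 at 1370 and 3190 CPM. Against all other cells, 1 of 18 bone matrix genes (median log2 fold -0.33) and 1 of 11 osteoblast markers (-0.44) were lower in the members. In that comparison 0.609% of all genes tested were lower.

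The genes lowest in the members relative to Ibsp-high cells included those of late osteoblasts and osteocytes. Dmp1 and Phex, which act in phosphate handling and mineralization, were at 25.3 against 570 CPM and 9.31 against 264 CPM in library 1, and at 29.0 against 664 CPM and 12.9 against 220.4 CPM in library 2. Sost, the osteocyte gene of the WNT inhibitor sclerostin, was at 2.68 against 97.4 CPM and at 2.42 against 83.2 CPM. Dkk1, another WNT inhibitor, was at 3.16 against 129 CPM and at 9.67 against 154 CPM. Smpd3, Col22a1, Mamdc2, Hrc, Slc13a5 and the unnamed gene RP23-457J22.1 complete the lowest 10. Of 20 bone matrix genes 14 were lower and 3 higher, and of 8 mineralization genes tested 7 were lower, with Alpl the exception. Among all genes tested, 7.02% were lower and 10.8% higher. The higher matrix genes were Col3a1, Col12a1 and Ogn, with Col3a1 at 2599 against 605 CPM and 5562 against 1184 CPM.

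The genes highest in the members relative to Ibsp-high cells included Pdzrn4 (15.8-fold and 27.3-fold), Tagln, Olfml2b, Alcam and Postn. Postn was at 985 against 83.8 CPM in library 1 and at 1467 against 174 CPM in library 2. Ccdc3, Cacna1g, Ptn, Vcam1, Mest, Pdgfrb, Megf6, Efna5 and Ttyh3 were also among the leading 15. Ptn, the growth factor gene pleiotrophin, was at 1582 against 146 CPM and at 1875 against 263 CPM. Pdgfrb, a receptor gene of mesenchymal progenitors and mural cells, was at 56.2 against 7.62 CPM and at 91.9 against 10.9 CPM. Of 8 IGF genes tested, 7 were higher, among them Igf2 at 1842 against 316 CPM and at 1684 against 235 CPM. Among all genes tested, 10.8% were higher and 7.02% lower. Of 6 periosteal markers, 3 were higher (Postn, Fgfr2 and Angptl2), and Cd200 was lower, at 42.3 against 309 CPM and 45.9 against 296 CPM. Many of these genes did not separate the members from all other cells. Tagln and Alcam were 0.841-fold and 0.835-fold there in library 1 and 1.51-fold and 0.977-fold in library 2. Gpx3, Pdzrn4, Serpine2 and Ifitm1, higher than in all other cells, were also among the 236, and Epdr1 missed the limit at 1.55-fold in library 1.

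Marker sums of other cell types give the mix among the members. Summed per cell, the periosteal markers had a median of 19.1 UMIs per 10000 in members, 13.3 in other cells and 8.80 in Ibsp-high cells in library 1, and of 33.3 in members and 11.8 in Ibsp-high cells in library 2. The SM markers had medians of 8.44 in members, 6.8 in other cells and 1.13 in Ibsp-high cells in library 1. In library 2 these were 6.38, 4.67 and 1.65. Hhip, one of the SM markers, was lower in members than in other cells in both libraries. The medians of the endothelial, glia and granulocyte or mast cell sums were 0 in members and in other cells of both libraries. The osteoclast markers summed to 4.74 UMIs per 10000 over all members and 2.58 over other cells in library 1, with Mmp9, one of the list, at 314 against 91.7 CPM, and to 1.10 and 2.19 in library 2. Non-erythroid markers of other lineages (osteoclast, macrophage, granulocyte or mast cell, endothelial and glia) reached 20 per 10000 in 30 of 237 members in library 1 (12.7%, Wilson interval 9.01% to 17.5%), as in 12.6% of other cells. In library 2 this was so in 2 of 103 members (1.94%, 0.534% to 6.81%) and in 6.71% of other cells. Chondrocyte markers reached that level in 21 members of library 1 (8.86%) against 3.77% of other cells, and in 1 member of library 2 (0.971%) against 1.12%. Members with exactly 2 Mmp13 UMIs in library 1 had Acp5 at 286 CPM, above the 29.5 and 36.3 CPM of the higher bands. Of the 717 Acp5 UMIs in that band, 462 came from 2 of its 82 cells, which held 10 or more UMIs of both Mmp9 and Acp5 and had Acp5 at 6640 CPM. Without all cells with such non-erythroid markers, an alternative chosen after seeing the data, 308 members remained, and 5 of the 6 genes were still called. Col10a1, the defining gene of hypertrophic chondrocytes, had 1 UMI in the members of library 1 and 0 in library 2.

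At E16.5 the same rule found 10 of 497 kept cells in library 1 (2.01%, Wilson interval 1.10% to 3.66%) and 3 of 359 in library 2 (0.836%, 0.285% to 2.43%). These libraries used a newer capture chemistry than those of E18.5, and the median depth of these cells was 2207 and 5508 UMIs, so that age, chemistry and depth cannot be told apart. Over the 10 cells of library 1, Serpine2 was at 376 CPM (14 UMIs, Poisson interval 206 to 631) against 53.7 CPM in the other cells, and over the 3 cells of library 2 at 372 CPM (6 UMIs, 136 to 809) against 101 CPM. Gpx3 had 4 UMIs in library 1, or 107 CPM (29.3 to 275) against 16.2 CPM, and none in library 2. Ifitm1 had 6 UMIs in library 1 (161 CPM, 59.2 to 351) against 49.8 CPM, and 1 UMI in library 2. Epdr1 had 3 UMIs in library 1 (80.6 CPM, 16.6 to 236) against 14.9 CPM, and none in library 2. Pdzrn4 had no UMI in either, where 0 UMIs allow up to 99.1 and 229 CPM by the exact Poisson interval, above the 12.3 and 10.4 CPM of the other cells. Serpine2 was thus the gene of these 5 with more than 1 UMI in both libraries. Postn was at 2180 CPM (81 UMIs) against 495 CPM in library 1 and at 558 CPM (9 UMIs) against 388 CPM in library 2.

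In the captured coronal tissue Mmp13 was lowest in the parietal OF. In SM the 5 libraries had 24.7, 11.5, 11.9, 12.3 and 12.8 CPM of Mmp13, in the frontal OF 7.14, 7.72, 3.59, 15.4 and 10.5 CPM, and in the parietal OF 2.46, 4.58, 0, 0.916 and 0.276 CPM (replicates 1 to 5). The parietal OF libraries all lay below every SM library, whereas SM and the frontal OF overlapped. By the quasi-likelihood test of edgeR, with p adjusted by Benjamini-Hochberg over 19768 genes, Mmp13 was lower in the parietal OF than in SM by a log2 difference of -3.15 (SE 0.66, adjusted p = 0.000165). It was higher in the frontal than in the parietal OF by 2.42 (SE 0.64, adjusted p = 0.0108), a call lost without replicate 4 (adjusted p = 0.114) or replicate 5 (adjusted p = 0.0758). The frontal OF and SM differed by -0.72 (SE 0.60, adjusted p = 0.695). In bulk tissue fewer cells of a type and less RNA per cell cannot be told apart.

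Ibsp, the other gene of the rule, and early osteoblast genes were higher in both OFs than in SM. Ibsp was at 147 ± 147 CPM in SM, 2470 ± 1100 CPM in the frontal OF and 7420 ± 2860 CPM in the parietal OF (mean ± SD, n = 5 each). Its log2 difference from SM was 4.07 (SE 0.77, adjusted p = 0.000139 by edgeR) in the frontal and 5.65 (SE 0.83, adjusted p = 8.56e-08) in the parietal OF. Alpl rose in the frontal OF by 1.43 (SE 0.30, adjusted p = 0.000627) and in the parietal OF by 2.02 (SE 0.30, adjusted p = 1.31e-07). Runx2 rose by 0.74 (SE 0.13, adjusted p = 5.24e-05) and 1.20 (SE 0.14, adjusted p = 1.69e-11), and Sp7 by 1.62 (SE 0.29, adjusted p = 3.27e-05) and 2.40 (SE 0.29, adjusted p = 3.04e-10). Ibsp, Alpl and Sp7 were not called between the fronts. Runx2 was lower in the frontal than in the parietal OF (-0.46, adjusted p = 0.0234 by edgeR), a call lost in 8 alternatives. In the cells of low Ibsp, summed Alpl and Runx2 had higher values at higher Mmp13, with overlapping intervals between some neighbouring bands. Among the captured coronal regions the mean of Mmp13 was lowest where the means of Alpl and Runx2 were highest.

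**Figure D5:**
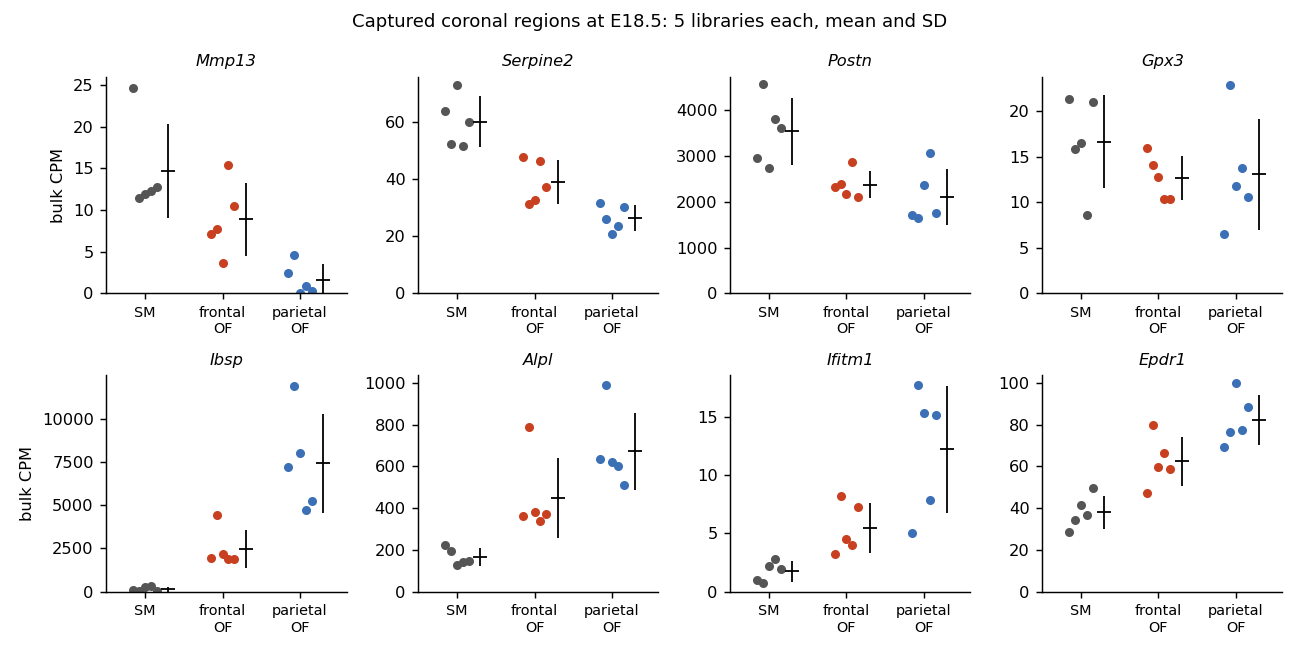
Bulk CPM (vertical, from 0) of 8 genes in the captured coronal SM, frontal OF and parietal OF at E18.5, 1 point per library, with the mean and SD of 5 libraries beside them. Mmp13, Serpine2 and Postn are lowest in the parietal OF, and Ibsp, Alpl, Ifitm1 and Epdr1 are highest there by mean.

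The 6 genes higher in the members did not share 1 direction across the regions. All 6 were tested. In the frontal OF against SM, 1 was higher (Ifitm1) and none lower, where 2.41% of all genes were higher and 1.04% lower. The parietal OF against SM had 2 higher (Ifitm1 and Epdr1) and 1 lower (Serpine2), where 9.77% of all genes were higher and 8.27% lower. None passed the test between the fronts, where 3.43% and 2.01% of all genes were higher and lower in the frontal OF. There, 1 of the 6 was higher and 2 lower at an unadjusted p under 0.05 by edgeR, and DESeq2 called 0 higher and 1 lower. In the frontal OF against SM, 1 was lower at an unadjusted p under 0.05 and DESeq2 called 0 lower. Serpine2 had 63.8, 52.0, 72.9, 51.6 and 59.8 CPM in SM and 31.5, 26, 20.6, 23.5 and 30.3 CPM in the parietal OF, without overlap (log2 difference -1.19, SE 0.26, adjusted p = 0.000386 by edgeR). Ifitm1 had 0.714 to 2.79 CPM in SM and 5.01 to 17.7 CPM in the parietal OF (2.81, SE 0.41, adjusted p = 4.63e-08). In the frontal OF its difference of 1.65 (SE 0.39, adjusted p = 0.00417 by edgeR) was lost without replicate 2 (adjusted p = 0.152). It was also lost when second libraries took the place of the first (adjusted p = 0.520). Second libraries existed for 3 of the 5 replicates of each region, not the same 3 in all regions. With the embryo as a block, Epdr1 also passed in the frontal OF against SM (adjusted p = 0.00694 against 0.0608 without it) and Serpine2 between the fronts (0.0458 against 0.236). Epdr1 had 28.5 to 49.5 CPM in SM and 69.4 to 100 CPM in the parietal OF (1.11, SE 0.23, adjusted p = 0.00011). Gpx3, the gene with the largest mean fold of the 6 in the cells, was at 16.7 ± 5.14 CPM in SM, 12.7 ± 2.42 CPM in the frontal OF and 13.1 ± 6.10 CPM in the parietal OF. Its differences from SM were -0.39 (SE 0.34, adjusted p = 0.709) and -0.35 (SE 0.34, adjusted p = 0.540). Pdzrn4 was not called in either OF, with adjusted p of 0.787 in the frontal and 0.368 in the parietal OF.

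The wider lists of the comparison with Ibsp-high cells divided by region. These lists come from a comparison cut on Ibsp, which was itself higher in both OFs than in SM. Their direction in bulk may follow from that cut, and nothing particular to the members is read from it. Of the 154 genes lower in the members, 152 were tested in bulk. In the parietal OF against SM 139 of these were higher and none lower, with a median log2 difference of 1.77, beside -0.02 for all genes. In the frontal OF 92 were higher and none lower (median 1.07). Between the fronts, 63 were lower in the frontal OF and none higher. At an unadjusted p under 0.05 by edgeR, 1 gene went against the direction of the others in each of these comparisons, and DESeq2 called 0 in that direction in each. Of the 236 genes higher in the members, 234 were tested, and in the parietal OF 102 were lower than in SM and 7 higher (median -0.43). In the frontal OF 26 were lower and 2 higher (median -0.23). Compared between the fronts, 40 were higher and 4 lower in the frontal OF (median 0.17). Of all genes, 9.77% were higher and 8.27% lower in the parietal OF than in SM. For the frontal OF these shares were 2.41% and 1.04% against SM and 3.43% and 2.01% against the parietal OF. Postn was lower in the parietal OF than in SM by a log2 difference of -0.75 (SE 0.19, adjusted p = 0.00204 by edgeR), and Alcam by -1.82 (adjusted p = 7.18e-10). These comparisons share the SM libraries.

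Mmp13 was also measured in the other captured groups. In the frontal suture at E18.5 it was at 33.1 ± 8.79 CPM in the frontal OF (21.4 to 43.1 CPM) and 3.04 ± 1.88 CPM in SM (1.04 to 6.10 CPM), without overlap. At E16.5 the frontal suture had 13.3 ± 7.75 CPM in the OF and 0.448 ± 0.232 CPM in SM. The lambdoid suture at E18.5 had 6.89 ± 5.70 CPM in the parietal OF, 3.29 ± 0.628 CPM in the interparietal OF and 1.5 ± 0.838 CPM in SM, and the sagittal suture 4.54 ± 3.20 CPM in the OF and 2.19 ± 0.581 CPM in SM. In the coronal suture at E16.5 the values were 10.2 ± 9.20 CPM in SM, 7.37 ± 4.97 CPM in the frontal OF and 6.71 ± 6.13 CPM in the parietal OF, with overlap among all 3 (n = 5 for each group). By mean (14.7 CPM), coronal SM at E18.5 stood second among the 20 groups, after the frontal OF of the frontal suture at E18.5. This rank leaned on replicate 1 at 24.7 CPM, as the other libraries of this group lay at 11.5 to 12.8 CPM. Close to it by mean were 2 groups of E16.5, the frontal OF of the frontal suture (13.3 CPM) and the lambdoid parietal OF (12.5 CPM). The libraries of both overlapped those of coronal SM. By their labels, the sutures came mostly from different litters, so that suture and litter cannot be fully told apart. These values are a description, and no difference between sutures was tested.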

How the data were processed

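Each E18.5 single-cell library pooled coronal strips of several embryos and was counted by the authors with Cell Ranger, so that the deposited values are UMI counts per gene and barcode. For bulk tissue captured by laser, the authors trimmed reads with cutadapt, aligned them to mm10 with STAR (2.5.3a) and counted exon reads without strand with featureCounts (1.6.4), and the deposited values are read counts per gene.

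Barcodes with over 800 detected genes were kept. No doublet caller was run. UMIs were summed per library over members, other cells and Ibsp-high cells, and folds were taken as (count + 0.5)/(total + 1). Members were chosen on these counts, so no test was made, and intervals cover counting error only. The members and gene lists were chosen with earlier results of these data known. Named were, in each comparison, the 15 called genes with the largest and the 10 with the smallest mean fold, together with members of the lists by role, and genes of the Mmp9 pattern were chosen after their values were seen. Marker and pathway lists are described by counts and medians.

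Bulk counts were tested with edgeR 4.0.16 (quasi-likelihood, TMM, R 4.3.3) on 100 libraries in 20 groups, after a filter that left 19768 genes (1 CPM or more, over 10% of libraries), two-sided, at a Benjamini-Hochberg adjusted p of 0.05. The coronal E18.5 libraries held 20133332 to 29099736 counts. The fit was without a block. Replicate numbers mark the same embryo across regions, and deviations of same-numbered libraries correlated at -0.09 to 0.26. DESeq2 1.42.0, other scalings, filters, libraries and limits were alternatives. The count methods were tested on simulated data. Authors' clusters of cells were not used here. One gene of the called lists is not reported here.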

Additional observations from a re-analysis of the deposited data

Results flagged for a closer look

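The bulk CPM of single genes in single regions was screened for a library of the 5 that stood apart (Dixon's limit 0.71). Of 33 such screens, 5 held one, where chance gives about 1 in 20. The screens shared the same 15 libraries and were not independent, so nothing is read from this count. In replicate 2 Alpl stood apart at 788 CPM in the frontal OF and at 992 CPM in the parietal OF, and Ibsp at 4430 CPM in the frontal OF. In SM, Mmp13 stood apart at 24.7 CPM in replicate 1 and Runx2 at 530.0 CPM in replicate 4. Among 13 genes compared between the fronts, 2 differed by the test of the difference itself. These were Mmp13, higher in the frontal OF by a log2 difference of 2.42 (adjusted p = 0.0108 by edgeR), and Runx2, lower there at -0.46 (adjusted p = 0.0234). Mmp13 did not pass without replicate 4 (adjusted p = 0.114) or replicate 5 (0.0758), and Runx2 did not pass with the replicate block (0.0635), with DESeq2's size factors (0.0532), in the coronal libraries of this stage alone (0.0853), with the second libraries (0.217) or without replicate 1, 3, 4 or 5 (0.0747 to 0.124). The causes were not tested.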

How the results depend on the processing

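The cell counts depended on the limits, and 135 of 631 alternative fold values of single genes also moved. With at least 1 Mmp13 UMI there were 886 members, 1 gene higher and 5 lower than in other cells, and Cd74 and Lyz2 reversed to log2 folds of 0.71 and 0.35. With at least 3 UMIs there were 220 members, 21 genes higher and 29 lower. Higher and lower genes numbered 12 and 21 without outlying cells, 13 and 24 with cells thinned to 3500 UMIs, 14 and 24 as a mean over cells, 63 and 274 with no CPM minimum, and 1 and 1 at 3-fold. With Ibsp-high cells left out of the other cells, 3 genes were higher and 11 lower. Against Ibsp-high cells they numbered 1286 and 429 with no CPM minimum and 113 and 89 at 3-fold. Without cells with markers of other lineages 97 members remained, all in library 1, since each cell of library 2 held haemoglobin UMIs at that level, and no gene counts could be given. A single library gave 103 to 237 members, 16 to 16 genes higher and 33 to 66 lower than in other cells, and 390.0 to 398 higher and 229 to 232 lower than in Ibsp-high cells.

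In bulk, no gene difference reversed in 187 refits. With the replicate block, which pairs regions of 1 embryo, 2 of the 6 genes higher in members were higher in the frontal OF than in SM and 1 was higher than in the parietal OF, and Runx2 was no longer called between the fronts (log2 -0.41, adjusted p = 0.0635). The block ended no other call of Mmp13, Ibsp, Alpl, Runx2, Sp7, Postn or the 6 genes. Of the 13 genes lower in members than in other cells, 1 was lower in the frontal than in the parietal OF without the block. With the block, 0 were. DESeq2 gave 1 of the 6 lower in the frontal than in the parietal OF. Coronal E18.5 libraries alone gave 2 of the 6 higher in the frontal OF than in SM, and 712 genes called between the fronts, against 1076. With the second libraries, held for 3 replicates of each region, in place of the first, 0 of the 6 were higher in the frontal OF than in SM. Leaving out 1 replicate gave 304 to 683 genes for the frontal OF against SM (0 to 2 of the 6 higher), 2351 to 3197 for the parietal OF against SM and 639 to 970.0 between the fronts. Runx2 between the fronts was lost in 8 alternatives, with adjusted p from 0.0532 to 0.217. The causes were not tested. With 2 pools at E18.5, the cells allow no estimate of the spread between embryos.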
